A study of Drosophila melanogaster with 6 samples.

Results

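The genes of the fly sarcomere, the repeating contractile unit of muscle, were followed in whole *Drosophila melanogaster* males that carry histone H3.3 in which lysine 27 is replaced by arginine. The genes were chosen by symbol from a list of 33 names covering thick filament, thin filament and Z-disc proteins, giant elastic proteins, calcium handling and energy supply. The expression table held 15115 genes, and 32 of the 33 symbols were among them. The remaining one, *Zasp67*, is listed there under the older name *CG14168* and was not counted with the others. All 32 genes had a mean RPKM of at least 1 and were tested.

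RNA-seq was performed on whole male pharate adults, animals about to leave the pupal case, 96 to 108 hours after puparium formation. The 3 genotypes, with 2 libraries each, were *yw* as wild type, *yw* with *H3.3B K27R* (the mutation lies in the X-linked H3.3 gene), called the single mutant, and *yw* with *H3.3B K27R* and homozygous *H3.3A K27R*, called the double mutant. All animals therefore share the *yw* background and are male, and each library pools males. The comparison asks whether muscle genes depend on the modifiable lysine in H3.3. The libraries held 1535941 to 2118264 reads counted on genes. Expression is given as RPKM, reads scaled to the length of the gene and to the counted reads of the library, so every value is relative to the rest of its own library. The labels number the replicates but do not say how the animals were collected separately, and p-values therefore measure only the spread between these libraries, which may be technical.

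In a sarcomere, thick filaments of myosin slide along thin filaments of actin that are anchored in the Z-disc. Calcium binds troponin C, and troponin and tropomyosin then uncover the sites on actin to which myosin binds. The indirect flight muscles, the fibrillar muscles that fill much of the thorax, are stretch-activated and use their own versions of several of these proteins, while leg, jump, abdominal and visceral muscles use others. Flight muscle completes its growth in the pupa, so that pharate adults contain both kinds of muscle.

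The RNA of the sarcomere genes took a near-constant part of every library. Reads on the 32 genes made up 14.9% (95% Wilson interval 14.8 to 14.9%) and 14.6% (14.6 to 14.6%) of counted reads in the wild type libraries. The share was 14.0% and 14.4% in the single mutant and 14.3% and 14.6% in double mutant libraries. These intervals cover counting error only. The mutant and wild type libraries overlapped for the double mutant, and both single mutant libraries were below both wild type libraries. Across the 6 libraries the coefficient of variation of a sarcomere gene was between 1.99% for *Tm2* and 19.98% for *Zasp66*, with a median of 5.89%. The median over all genes tested was 22.7%, and all 32 genes were below it. That median includes weakly expressed genes, and genes of similar level were not compared.

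The wild type levels spanned from 82.6 RPKM for *tmod* to 7199 RPKM for *Mlc2*, and 14 genes had a mean of at least 1000 RPKM. In descending order of mean wild type RPKM the first were *Mlc2*, *Act57B*, *Act87E*, *Act88F*, *Act79B*, *Mhc*, *up* and *TpnC73F*. The order below was *fln*, *Tm2*, *Mlc1*, *Ca-P60A*, *Mf*, *wupA*, *Zasp66*, *Prm*, *Actn* and *Zasp52*. Then came *bt*, *Tm1*, *TpnC4*, *Mlp60A*, *Unc-89*, *Argk*, *Mlp84B*, *TpnC25D*, *TpnC47D*, *TpnC41C*, *Msp-300*, *Strn-Mlck*, *sls* and *tmod*. In 11 of the 31 neighbouring pairs of this order the ranges of the wild type libraries overlapped, as for *Mhc* and *up*, *fln* and *Tm2*, *Tm2* and *Mlc1*, and *bt* and *Tm1*, so those neighbours are not separated by their spread. The length to which RPKM is scaled ranged from 606 bases for *TpnC47D* to 69801 bases for *Msp-300*. For the giant genes it sums the exons of many splice forms, which lowers their value relative to any single form.

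**Figure D1:**
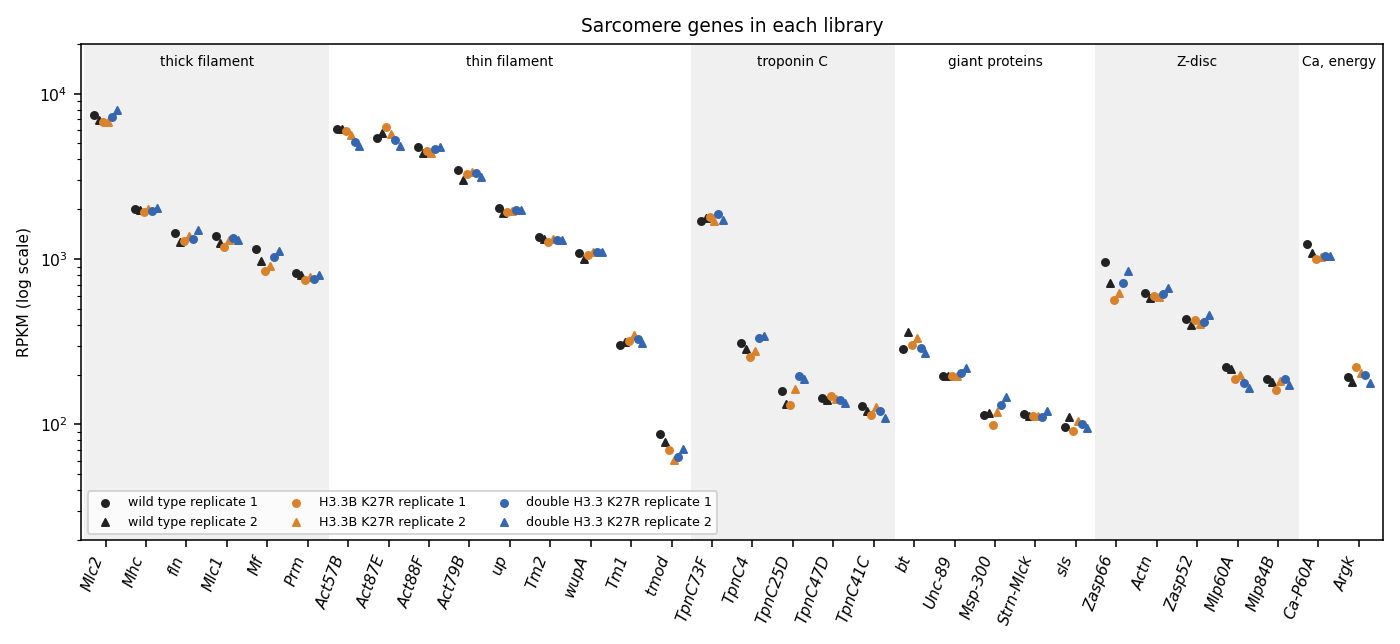
RPKM on a log axis of the 32 sarcomere genes in each of the 6 libraries, with the genes grouped by role and ordered by wild type level. Circles are replicate 1 and triangles replicate 2 (black, wild type; orange, single mutant; blue, double mutant). For each gene the 6 points lie close together compared with the distance from 82.6 to 7199 RPKM between genes.

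No sarcomere gene was differentially expressed in either mutant. Differential expression was called with limma at a Benjamini-Hochberg adjusted p below 0.01, taken over the 11304 genes tested, with an absolute log2 fold change above 1. By this rule 0 of 32 genes were called in single mutant males, where 0.00885% of all genes were called. In double mutant males 0 of 32 genes were called, beside 0.133% of all genes, and between the mutants 0 of 32, beside 0.0619%. At an adjusted p below 0.05 with no threshold on the fold change the counts were again 0 of 32 in all 3 comparisons, beside 0.0619%, 0.832% and 0.31% of all genes in the same order. At backgrounds this low, 0 of 32 is not a departure from the other genes.

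At an unadjusted p below 0.05 in limma, 2 of 32 genes were lower and 0 higher in single mutant males, where 12.4% of all genes passed. In double mutant males 1 gene was higher and 2 were lower, beside 14.8% of all genes. Between the double mutant and single mutant males 3 genes were higher and 0 lower, beside 12.5% of all genes. Using voom weights on whole reads recovered from the RPKM values, limma again called 0 of 32 genes in each comparison, beside 0.0619%, 0.469% and 0.354% of all genes. At an unadjusted p below 0.05 that alternative gave 4 of 32 genes in single mutant males and 5 of 32 in double mutant males, beside 13.5% and 15.2% of all genes. Between the mutants it gave 8 of 32 genes, 6 higher and 2 lower in the double mutant, beside 13% of all genes, a larger share than the background. At an adjusted p below 0.05 it left 1 gene, *Act57B*, in double mutant males (adjusted p = 0.0333, limma with voom) and 0 in the other comparisons, beside 1.84% of all genes in the former and 0.159% and 1.32% in the latter.

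The size of the differences was bounded more tightly for these genes than for the median gene. The median half-width of the 95% interval was 0.26 against 0.60 on the log2 scale. All genes tested include those with a mean RPKM as low as 1, whereas the lowest wild type mean of the set was 82.6 RPKM. Genes of similar level were not set apart, so a trait of sarcomere genes and one of high expression cannot be told apart here. The median log2 fold change of RPKM + 1 over the 32 genes was -0.033 in the single mutant and 0.0056 in double mutant males, where the medians over all genes were -0.017 and -0.00049. The median absolute log2 fold change was 0.061 and 0.067, against 0.24 and 0.25 over all genes. The same measure between wild type replicates was 0.11 for the sarcomere genes and 0.26 for all genes. It was 0.082 and 0.21 between the single mutant replicates, and 0.096 and 0.25 between the double mutant replicates. For the sarcomere genes the differences between genotypes were smaller than those between single replicates. The former are between means of 2 libraries, which vary less than single libraries, so no conclusion is drawn from this. The limma 95% interval lay within 1.5-fold either way for 30 of 32 genes in each mutant, and for 2470 and 2423 of the 11304 genes overall. It lay within 2-fold for all 32 genes in both mutants. These intervals are not adjusted for the number of genes. In whole animals, fewer muscle cells and less RNA per muscle cell cannot be told apart, and a change in one muscle type can be diluted by the others.

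**Figure D2:**
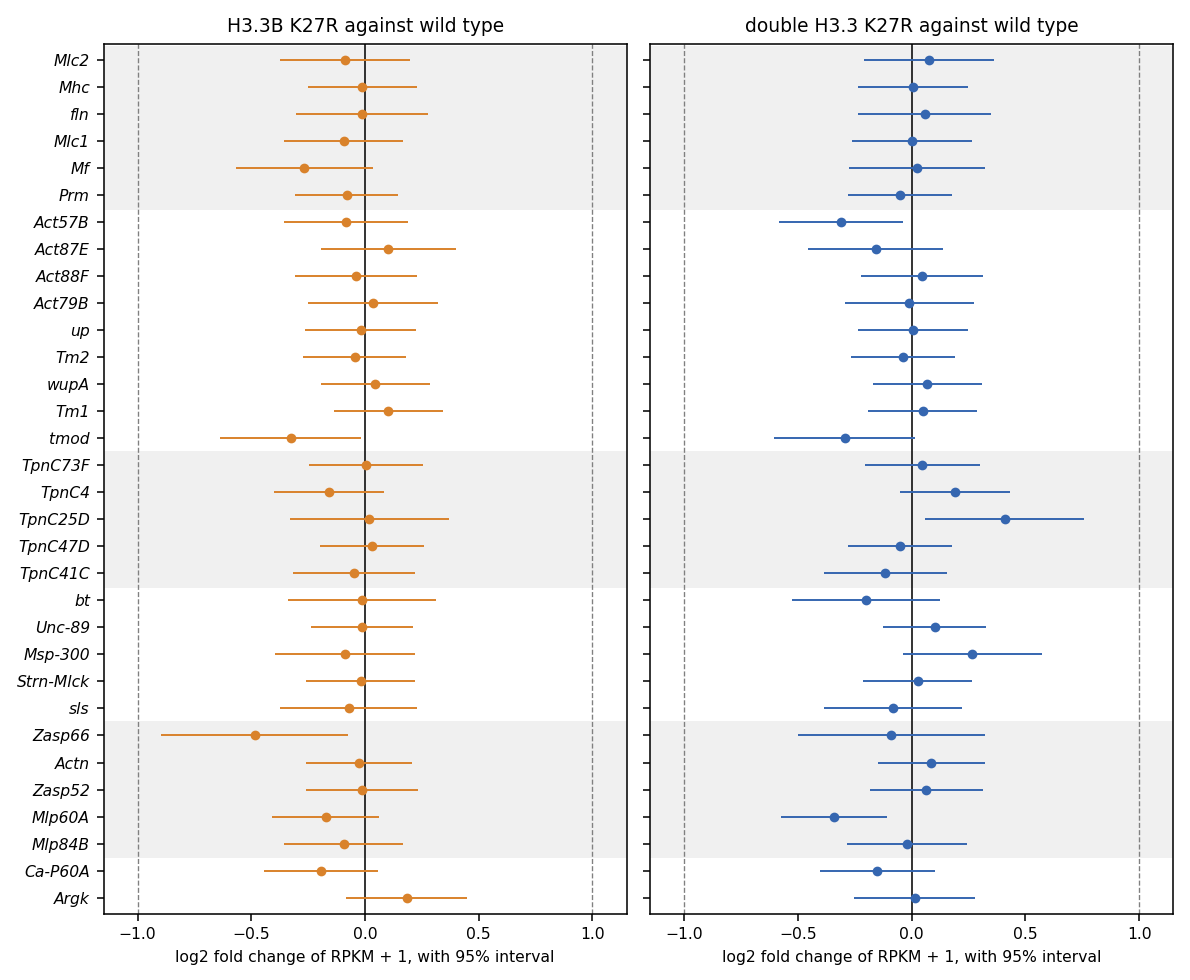
Log2 fold change of RPKM + 1 against wild type with the limma 95% interval (not adjusted for the number of genes) for each of the 32 sarcomere genes, in single mutant males on the left and double mutant males on the right; dashed lines mark a log2 fold change of 1 either way. All intervals lie between the dashed lines, and the points range from -0.48 to 0.18 on the left and from -0.34 to 0.41 on the right.

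In the thick filament, *Mhc*, the single gene for muscle myosin heavy chain, had 2000.2 and 1981 RPKM in wild type, 1932 and 2019 in the single mutant, and 1951 and 2049 in double mutant libraries. All 3 genotypes overlapped. *Mhc* had a log2 fold change of -0.01 in the single mutant (95% interval -0.25 to 0.23) and 0.01 in double mutant males (-0.23 to 0.25). *Mf* encodes myofilin, a protein of the thick filament core, and had 1157 and 969 RPKM in wild type. It had 849 and 913 in the single mutant and 1031 and 1126 in double mutant libraries, so the single mutant libraries were below all others. The log2 fold change of *Mf* in single mutant males was -0.27 (SE 0.12, adjusted p = 0.45, limma). The regulatory light chain gene *Mlc2*, the alkali light chain gene *Mlc1* and the paramyosin gene *Prm* had log2 fold changes from -0.09 to 0.08 over both mutants. All 6 thick filament genes were below wild type in mean in single mutant males (median log2 fold change -0.08), but 4 of 6 with each library centred on its median gene and 5 of 6 with quantile normalization. In double mutant males 5 of 6 were above wild type (median 0.02), and 1 of 6 without wild type replicate 2. Of all genes tested, 5885 were negative in the former comparison and 5633 positive in the latter.

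Flightin, encoded by *fln*, is a thick filament protein needed for the flight muscle to hold its structure. *fln* had 1439.9 and 1266 RPKM in wild type, 1287 and 1388 in the single mutant, and 1322 and 1491 in double mutant libraries. The genotypes overlapped, and the log2 fold changes were -0.01 and 0.06 (SE 0.12 each). *Strn-Mlck* encodes stretchin and myosin light chain kinase forms, of which stretchin lies along flight muscle thick filaments. Its RPKM was 116 and 112 in wild type, 112 and 113 in the single mutant, and 112 and 121 in double mutant libraries. These 6 values lie within a coefficient of variation of 3.17%.

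Actin forms the thin filament, and *Act88F* is the actin of the indirect flight muscle. *Act88F* (3R, 15439969 to 15442177 in BDGP6) had 4732 and 4359 RPKM in wild type, 4482 and 4356 in the single mutant, and 4620 and 4765 in double mutant libraries. Neither mutant was separated from wild type. The log2 fold change was -0.04 in the single mutant (95% interval -0.31 to 0.23) and 0.05 in double mutant males (-0.22 to 0.32). With quantile normalization these became -0.22 and 0.16. *Act79B*, the actin of tubular adult muscles such as those of the legs, had 3467 and 3012, then 3274 and 3349, then 3304 and 3118 RPKM in the same order. Its genotypes also overlapped.

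The remaining muscle actin genes had lower values in double mutant libraries, though neither passed the test. *Act57B*, expressed in larval and adult body wall muscle, had 6118 and 6155 RPKM in wild type, 5949 and 5629 in the single mutant, and 5106 and 4799 in double mutant libraries. The double mutant libraries were below the other 4, with a log2 fold change of -0.31 (SE 0.11, adjusted p = 0.29, limma). With quantile normalization, which sets the values at each rank equal across libraries, the difference was -0.02. With each library centred on its median gene it was -0.31, and with a library left out it ranged from -0.35 to -0.27. *Act87E*, a muscle actin of similar use, had 5411 and 5811 RPKM in wild type, 6327 and 5727 in the single mutant, and 5252 and 4809 in double mutant libraries. *Act87E* had a log2 fold change of 0.10 in the single mutant and -0.16 in double mutant males (adjusted p = 0.78 and 0.62, limma). The double mutant value became 0.17 with quantile normalization and was -0.16 with each library centred on its median gene. The coding sequences of the muscle actins are nearly identical, so reads could have been dropped or shared among them, and the values of single actin genes are uncertain for that reason.

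The share of each gene in the actin family was taken within each library. *Act88F* took 24.0% and 22.5% of the summed RPKM of the 4 muscle actins in wild type, 22.4% and 22.9% in the single mutant, and 25.3% and 27.2% in double mutant libraries. The share in the double mutant was the highest of the 3 genotypes in both replicates. *Act57B* took 31.0% and 31.8% in wild type, 29.7% and 29.5% in the single mutant, and 27.9% and 27.4% in double mutant libraries. The ratio of *Act88F* to *Act57B* was accordingly 0.773 and 0.708 in wild type, 0.753 and 0.774 in the single mutant, and 0.905 and 0.993 in double mutant libraries. Shares within a library have no test here, and a higher share of one actin includes a lower value of another.

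**Figure D3:**
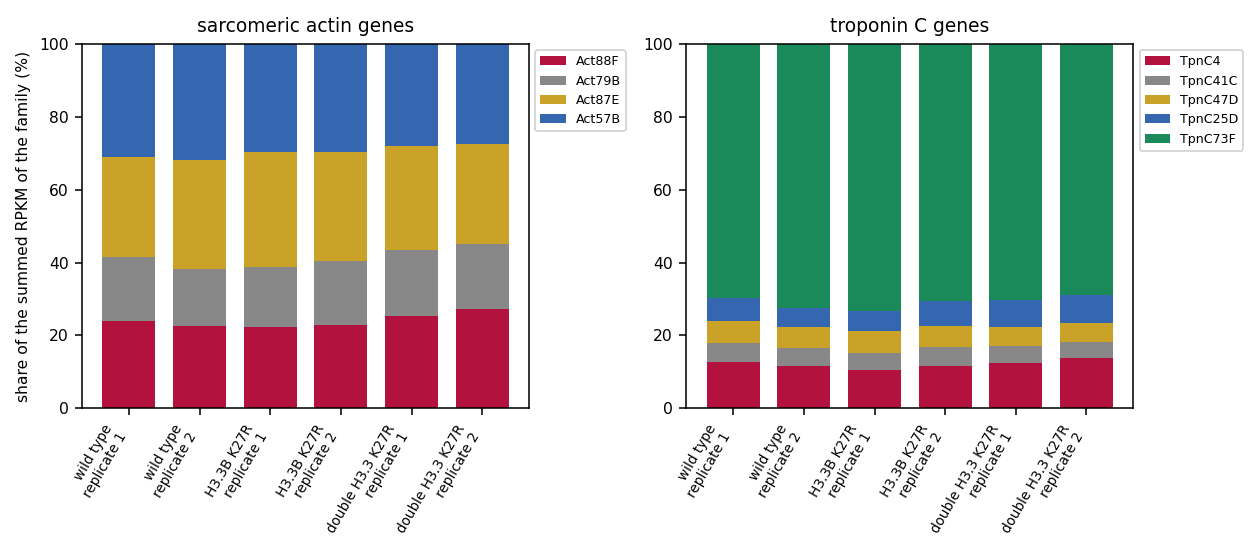
Share in percent of the summed RPKM of the 4 muscle actin genes (left) and of the 5 troponin C genes (right) taken by each gene in each library; each stacked bar is 1 library. *Act88F* takes 22.4 to 27.2% of the actin total, and *TpnC73F* takes 69.0 to 73.3% of the troponin C total.

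Tropomyosin and the other troponin subunits regulate the thin filament and varied little. The troponin T gene *up*, the troponin I gene *wupA* and the tropomyosin gene *Tm2* had log2 fold changes from -0.05 to 0.07 over both mutants. The second tropomyosin gene, *Tm1*, had 302 and 316 RPKM in wild type, 318 and 346 in the single mutant, and 329 and 310.5 in double mutant libraries. In the single mutant the lower library was just above the higher wild type library, at a log2 fold change of 0.10 (SE 0.10, adjusted p = 0.72, limma). *Tm1* also encodes cytoplasmic tropomyosins, so part of its RNA may not be from muscle.

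*tmod* encodes tropomodulin, which caps the pointed end of the thin filament. It had 87.1 and 78.1 RPKM in wild type, 70.4 and 61.0 in the single mutant, and 63.8 and 70.6 in double mutant libraries. All 4 mutant libraries were below both wild type libraries. The log2 fold change was -0.33 in the single mutant (SE 0.13, adjusted p = 0.38, limma) and -0.29 in double mutant males (adjusted p = 0.36). The comparisons share the wild type libraries, so the values are given side by side and are not independent. *tmod* is also used outside muscle.

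Troponin C is the calcium sensor of the thin filament, and *TpnC4* is its main flight muscle form. *TpnC4* had 309 and 286 RPKM in wild type, 256 and 277 in the single mutant, and 334 and 344 in double mutant libraries. The wild type libraries lay between the mutants without overlap. Relative to wild type, its log2 fold change was -0.16 in the single mutant and 0.19 in double mutant males (SE 0.10, adjusted p = 0.56 and 0.45, limma). Between the mutants it was 0.35 (adjusted p = 0.23, limma). These values rest on 377 to 514 reads per library.

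*TpnC25D*, another troponin C gene (2L, 5216701 to 5219053 in BDGP6), had the highest log2 fold change of the set against wild type. It had 159 and 132 RPKM in wild type, 132 and 163 in the single mutant, and 197 and 188 in double mutant libraries. Both double mutant libraries were above the other 4, with a log2 fold change of 0.41 against wild type (SE 0.15, 95% interval 0.06 to 0.76, adjusted p = 0.28, limma). The gene had 163 to 213 reads per library, and its exons overlap those of *tkv* on the opposite strand in BDGP6. Whether reads were counted by strand is not given in the sources used here, so reads of both genes cannot be told apart.

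The other troponin C genes did not separate this way. *TpnC73F* had 1702 and 1782 RPKM in wild type, 1789.6 and 1701 in the single mutant, and 1876 and 1726 in double mutant libraries. *TpnC47D* had 144 and 140.2, then 148 and 142, then 140.01 and 134 RPKM in the same order. *TpnC41C* had 129 and 121, then 115 and 128, then 121 and 110.1 RPKM. For *TpnC47D* and *TpnC41C* both double mutant libraries were below both wild type libraries, by small margins (log2 fold change -0.05 and -0.12). *TpnC4* took 12.7% and 11.6% of the summed RPKM of the 5 troponin C genes in wild type, 10.5% and 11.5% in the single mutant, and 12.5% and 13.8% in double mutant libraries.

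The flight muscle forms as a group were then set against the other forms in each library. The mean log2(RPKM + 1) of *Act88F*, *fln*, *TpnC4* and *Strn-Mlck* minus that of the 7 other actin and troponin C genes was -0.39 and -0.45 in wild type. It was -0.50 and -0.47 in the single mutant, and -0.41 and -0.22 in double mutant libraries. The group means were -0.42 ± 0.04 (SD, n = 2), -0.49 ± 0.02 (SD, n = 2) and -0.32 ± 0.13 (SD, n = 2). The single mutant libraries were both below wild type, and the double mutant overlapped wild type. The double mutant difference from wild type, 0.11, was 0.01 without double mutant replicate 2. All 4 flight muscle genes had intervals within 1.5-fold of wild type in both mutants.

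The giant proteins link filaments and set muscle stiffness. *Msp-300*, the muscle nesprin that ties nuclei to the cytoskeleton, had 114 and 117 RPKM in wild type, 99.2 and 119 in the single mutant, and 132 and 147 in double mutant libraries. The double mutant libraries were above the other 4. The log2 fold change was 0.27 against wild type (SE 0.13, adjusted p = 0.40, limma) and 0.36 against the single mutant (adjusted p = 0.33). The projectin gene *bt*, the obscurin gene *Unc-89* and the titin-like gene *sls* had log2 fold changes from -0.20 to 0.10 over both mutants, and *bt* alone ranged from 272 to 361 RPKM.

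The lowest log2 fold change of the set was that of a Z-disc gene. *Zasp66*, which encodes a PDZ domain protein of the Z-disc, had 965 and 713 RPKM in wild type, 564 and 622 in the single mutant, and 716 and 850 in double mutant libraries. Both single mutant libraries were below the other 4. The log2 fold change was -0.48 in the single mutant (SE 0.17, 95% interval -0.90 to -0.07, adjusted p = 0.34, limma) and -0.09 in double mutant males. The wild type libraries themselves differed by 0.44 on the log2 scale at this gene, the largest replicate difference of the set. Without wild type replicate 1 the single mutant value was -0.27, and without wild type replicate 2 it was -0.70.

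*Mlp60A*, a muscle LIM protein gene, had 222 and 216 RPKM in wild type, 189 and 199 in the single mutant, and 179 and 167 in double mutant libraries. The genotypes did not overlap, in the order wild type, the single mutant, the double mutant. Its log2 fold change was -0.17 in the single mutant and -0.34 in double mutant males (SE 0.10, adjusted p = 0.20 for the latter, limma), the smallest adjusted p of the set against wild type. The related *Mlp84B*, the alpha-actinin gene *Actn* and *Zasp52* had log2 fold changes from -0.09 to 0.09 over both mutants. *CG14168* (*Zasp67*) had 29.6 and 23.9 RPKM in wild type, 23.0 and 22.7 in the single mutant, and 28.4 and 28.2 in double mutant libraries, and was not called.

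*Ca-P60A*, the calcium pump SERCA that reloads the sarcoplasmic reticulum, had 1229.6 and 1088 RPKM in wild type. Its 4 mutant libraries were between 996 and 1042 RPKM, all below wild type, with log2 fold changes of -0.19 and -0.15 (SE 0.10, adjusted p = 0.50 and 0.57, limma). *Argk*, the arginine kinase that buffers ATP in muscle and nervous tissue, had 195 and 180.1 RPKM in wild type, 222 and 203 in the single mutant, and 199.9 and 178 in double mutant libraries. Its log2 fold change of 0.18 in single mutant males was the highest there (SE 0.11, adjusted p = 0.55, limma).

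Genes whose libraries did not overlap between 2 genotypes were counted beside all genes tested. In single mutant males 2 genes were above and 11 below wild type without overlap, 13 of 32 beside 44.9% of all genes (2214 above and 2865 below). In double mutant males 5 were above and 8 below, again 13 of 32, beside 44.6% (2533 above and 2514 below). Between the mutants 12 were higher and 6 lower in double mutant libraries, 18 of 32 beside 44.7% (2879 higher and 2172 lower). With 2 libraries a group such separation is common.

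Other parts of the muscle programme were counted from lists of named genes. Of 11 tested regulators of muscle identity and splicing 0 were called in either mutant (limma; 1 of 11 at an unadjusted p below 0.05 in each, beside 12.4% and 14.8% of all genes). That gene was *vg*, a wing and flight muscle selector gene, with 2.42 and 2.42 RPKM in wild type, 4.01 and 5.11 in the single mutant, and 4.29 and 5.004 in double mutant libraries. Its log2 fold changes were 0.70 and 0.72 (adjusted p = 0.35 and 0.28, limma), and 0.88 and 0.92 with voom. These values rest on only 15 to 32 reads per library. Of 13 further sarcomere, attachment and assembly genes 0 were called in either mutant, with 1 of 13 at an unadjusted p below 0.05 in each, beside the same 12.4% and 14.8%. The gene that passed in the single mutant was *sals*, a thin filament elongation factor, which also had the largest difference there. Its log2 fold change was -0.40 (adjusted p = 0.35, limma). In double mutant males *mys* passed, at a log2 fold change of 0.31 (adjusted p = 0.26, limma). The largest difference there was 0.43 for *unc-45*, a myosin chaperone, which did not pass (adjusted p = 0.43, limma) and had 24 to 45 reads per library.

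A list of 10 cytoplasmic actomyosin genes had a larger median log2 fold change than the sarcomere genes in the double mutant, though none was called. The list holds genes of cytoplasmic actin and myosin and of actin-binding proteins. In whole animals, RNA of these genes in muscle and in other cells cannot be told apart. The summed RPKM of the 10 genes was 2467 and 2282 in wild type. It was 2482 and 2609.5 in the single mutant, and 3067 and 3213 in double mutant libraries. Both double mutant libraries were above the other 4. All 10 log2 fold changes were positive in double mutant males, with a median of 0.43 beside 0.0056 for the sarcomere genes. Of the 11304 genes tested, 5633 were positive there. At an unadjusted p below 0.05, 6 of 10 were higher in double mutant males and 3 of 10 in single mutant males, where 14.8% and 12.4% of all genes passed in either direction. By limma 0 of 10 reached an adjusted p below 0.05 in the single or double mutant, beside 0.0619% and 0.832% of all genes. With voom 2 of 10 did in the double mutant, beside 1.84% of all genes. The largest was *sqh*, the non-muscle myosin regulatory light chain, at a log2 fold change of 0.51 (SE 0.099, adjusted p = 0.088, limma). No test compared the lists with each other.

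**Figure D4:**
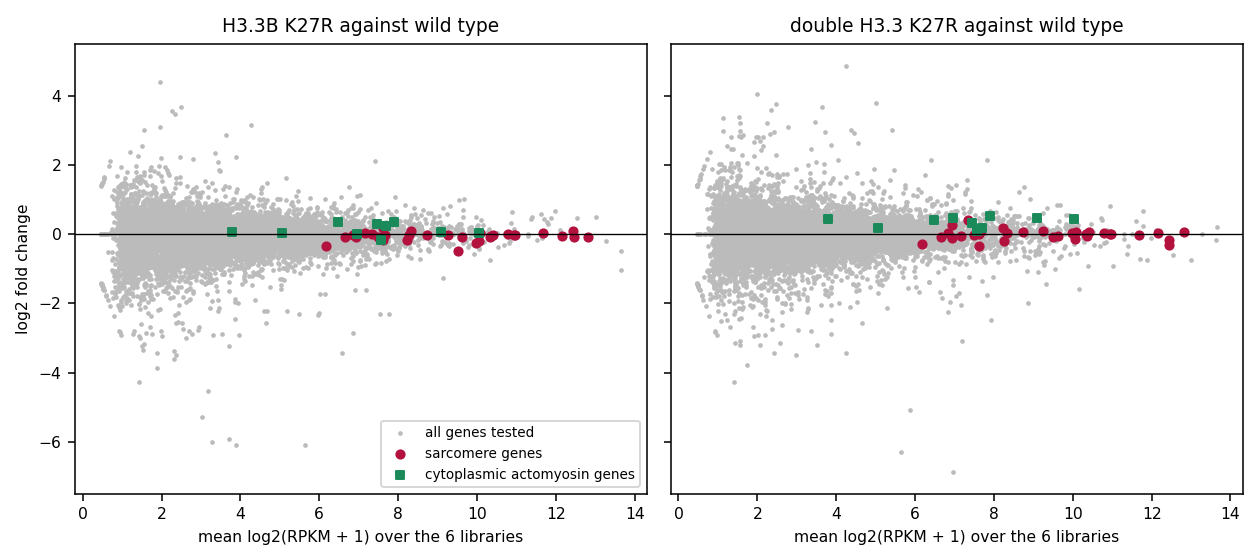
Log2 fold change against wild type (vertical axis) by mean log2(RPKM + 1) over the 6 libraries (horizontal axis) for the 11304 genes tested, in single mutant males on the left and double mutant males on the right. The 32 sarcomere genes (red) lie between -0.48 and 0.41, and the 10 cytoplasmic actomyosin genes (green squares) all lie above 0 on the right.

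Markers of other tissues in the whole animals are given beside these values. The summed RPKM of 5 testis genes was 1037 and 1135.5 in wild type. It was 745 and 761 in the single mutant, and 806 and 699 in double mutant libraries. All 5 were lower at an unadjusted p below 0.05 in both mutants (limma). Of the 11304 genes tested, 920 and 858 were lower at that threshold in the single and double mutant. By limma 0 of 5 testis genes reached an adjusted p below 0.05 in either mutant. With voom 2 of 5 did in the double mutant, beside 1.84% of all genes. The summed RPKM of 5 fat body genes was 2052 and 2525 in wild type, 2839 and 2328 in the single mutant, and 3561 and 4214 in double mutant libraries. Among these, the female yolk protein gene *Yp1* was at 0 in all 6 libraries. Of the 4 tested, 3 had a positive log2 fold change in single mutant males, and *FASN1* had -0.56. All 4 were positive in double mutant males. *Lsp2* made up much of the sums (1370 and 1781 RPKM in wild type). By limma 0 of 4 reached an adjusted p below 0.05 in either mutant. With voom 3 of 4 did in the double mutant, beside 1.84% of all genes. The 5 neuronal genes summed to 235.2 and 256.4 RPKM in wild type. The single mutant overlapped these sums (231.5 and 242.5), and both double mutant libraries were below them (234.2 and 208.5). In each mutant 1 neuronal gene had a positive log2 fold change and 4 a negative one. The 5 epidermal genes summed to 244.7 and 274.6 RPKM in wild type. Both single mutant libraries were above these sums (330 and 310.4), and the double mutant overlapped them (327.7 and 245.7). In each mutant 4 epidermal genes had a positive log2 fold change and 1 a negative one. By limma and by voom, 0 of 5 neuronal and 0 of 5 epidermal genes reached an adjusted p below 0.05 in either mutant. The part of these tissue differences in the values of the sarcomere genes was not tested. The 32 sarcomere genes summed to 45946 and 43920 RPKM in wild type, 43834 and 43534 in the single mutant, and 43585 and 43832 in double mutant libraries. The mutant sums were all below both wild type sums, and each lay closer to the lower wild type sum than that sum lay to the higher one.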

How the data were processed

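RNA from whole male pharate adults was sequenced in 6 libraries, 2 for each of 3 genotypes. The authors mapped the reads to a modified version of dm3 with STAR, counted them with Subread, and deposited RPKM values per gene, scaled to gene length and to counted reads. The submitters' processing notes name STAR 2.5.2b, SAMtools 1.3.1, Subread 1.28.1 and DESeq2 1.18.1. A deposited table of the authors' own DESeq2 comparisons (fold changes and p-values) was not used.

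Libraries were grouped by their genotype labels. Whole reads were recovered from the RPKM values: 73342 values above 0 (100%) were whole within 0.001 reads. The 1535941 to 2118264 counted reads per library set the precision, and a sarcomere gene had 125 to 36864 reads. Genotypes were compared by limma 3.58.1 (R 4.3.3; lmFit, eBayes with a trend) on log2(RPKM + 1), over the 11304 genes whose mean RPKM reached 1, in 1 fit with genotype as the factor. The fit used 3 residual and 3.43 prior degrees of freedom. Fold changes are on the log2(RPKM + 1) scale. P-values were adjusted by the Benjamini-Hochberg method over all genes tested. The procedure was tested on simulated data.

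Alternatives were a pseudocount of 0.1, no filter, a minimum mean RPKM of 5, quantile normalization, median centring, a fit of 2 genotypes, a replicate block, voom on recovered reads, eBayes without a trend, and each library left out. The members and gene lists were chosen with earlier results of these data known. Values in every library are given for the flight muscle isoforms, the other actin and troponin C genes, *Mhc*, and the 3 largest increases and decreases in each mutant. Other genes are given by range or count. Of the other lists, genes with the largest change or that passed a threshold are given. *sqh*, *vg*, *sals*, *unc-45*, *mys*, *FASN1*, *Lsp2*, *Yp1* and *CG14168* are named on that basis, or to account for a symbol or a sum. Coordinates and overlaps came from the BDGP6 annotation, which is not the build of the reads. In it, exons of 10 of the 32 genes overlap those of another gene, 3 on the same strand and 8 on the opposite strand.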

Additional observations from a re-analysis of the deposited data

How the results depend on the processing

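The count of sarcomere genes called stayed at 0 in all 3 comparisons under each alternative that kept 2 libraries per genotype. In those runs 1 to 7 of all genes tested were called for the single mutant and wild type. It was 3 to 53 for the double mutant and wild type, and 2 to 40 between the mutants. No sarcomere gene reached an absolute log2 fold change of 1 in any run, so the count could not leave 0. The furthest was -0.70 for *Zasp66* in the single mutant without wild type replicate 2. No gene changed its sign where either value had an unadjusted p below 0.05. Among the other genes signs were not stable: 12, 3 and 12 of the 32 genes (single mutant and wild type, double mutant and wild type, between the mutants) changed sign under at least 1 setting, and 16, 13 and 12 when a library was left out. The counts at an unadjusted p below 0.05 were less stable, and the share of all genes at that threshold is given above only for the main fit and voom. Against 2 genes for the single mutant and wild type, the count was 1 with quantile normalization or a fit of the 2 genotypes only, 0 with median centring, a replicate block or eBayes without a trend, 4 with voom, and 0 to 4 when a library was left out. Against 3 genes for the double mutant and wild type, it was 1 with the replicate block, 5 with voom, 0 without a trend, and 0 to 3 with a library left out. Against 3 genes between the mutants, it was 6 with quantile normalization, 8 with voom, 0 without a trend, 5 with a fit of the 2 genotypes only, and 0 to 5 with a library left out. Lone libraries left in a group were assumed to vary like the others. The cause of these shifts was not tested.

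The median log2 fold change of the sarcomere genes for the single mutant and wild type was -0.033, became 0.020 with median centring, and ranged from -0.073 to -0.014 with a library left out. For the double mutant and wild type it was 0.0056, became 0.058 with quantile normalization, and ranged from -0.040 to 0.056 with a library left out. Between the mutants it was 0.038, became 0.11 with quantile normalization and -0.014 with median centring, and ranged from 0.018 to 0.054 with a library left out. The flight muscle minus other isoforms difference for the single mutant was -0.066, became -0.11 with actin and troponin C genes only, and ranged from -0.095 to -0.037 with a library left out. Replicate numbers did not pair the libraries: correlations of replicate differences were 0.016, -0.21 and 0.0093 (wild type with the single mutant, wild type with the double mutant, and between the mutants). With the replicate block, 1, 3 and 2 of all genes tested were called in place of 1, 15 and 7. With the numbers of the double mutant swapped, an alternative chosen after seeing the data, the counts were 1, 3 and 2 and no sarcomere gene was called.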

Other observations

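The 32 genes lie on every major chromosome arm in BDGP6, with 3 on 2L, 9 on 2R, 7 on 3L, 9 on 3R, 1 on chromosome 4 and 3 on the X. The X-linked genes *up*, *wupA* and *Actn* had log2 fold changes of -0.02, 0.04 and -0.03 in the single mutant and 0.01, 0.07 and 0.09 in double mutant males. The gene on chromosome 4, *bt*, had -0.01 and -0.20.

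Shares of counted reads were also taken for the thick and thin filament genes. Reads on the 6 thick filament genes made up 4.89% and 4.62% of counted reads in wild type, 4.43% and 4.59% in the single mutant, and 4.69% and 5.01% in double mutant libraries. Reads on the 9 thin filament genes made up 5.04% and 4.94% in wild type, 5.04% and 4.89% in the single mutant, and 4.71% and 4.54% in double mutant libraries. The double mutant was thus the lowest of the 3 genotypes in thin filament share and overlapped wild type in thick filament share. Gene by gene, 4 of the 9 thin filament genes were above and 5 below wild type in double mutant males (median log2 fold change -0.01). A summed share is set mainly by its most abundant genes, here *Act57B* and *Act87E*. Their log2 fold changes were -0.31 and -0.16 in double mutant males, and -0.02 and 0.17 with quantile normalization. The RPKM of the cytoplasmic actin *Act5C* was 0.0522 and 0.0443 times that of the summed muscle actins in wild type, 0.0456 and 0.0537 in the single mutant, and 0.0649 and 0.0792 in double mutant libraries. No test was made of these shares, which were looked at after the values were seen.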
